A study of Drosophila melanogaster with 3 samples.

Results

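Peaks of Sp1-GFP at divergent promoters, where start sites of protein-coding genes on opposite strands lie close together, were taken from the authors' reproducible ("optimal") peak set. A peak was a member when its summit, the base of highest enrichment, lay within 500 bp of transcription start sites (TSSs) of 2 or more different protein-coding genes on opposite strands. Of the 8001 optimal peaks 1070 were members (13.4%), and they made up 30.1% of the 3559 summits that lay within 500 bp of any protein-coding TSS. The other promoter summits were 2429 near 1 gene and 60 near several genes on 1 strand, and 4442 summits were farther than 500 bp from every protein-coding TSS. Members fell on 1020 distinct intervals at 959 pairs of genes, and 1974 genes had a TSS within reach of one. In 1011 members the starts pointed away from each other (head to head), in 11 they pointed towards each other, and 48 had pairs of both kinds.

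The data are ChIP-seq peak lists from whole Drosophila melanogaster larvae at the wandering stage of the third instar, males and females pooled. All larvae came from 1 transgenic line that stably carried Sp1 with green fluorescent protein (GFP) at its C terminus, and bound DNA was recovered with an antibody to GFP. There was 1 group of 3 biological replicates and 1 control alignment, and no other genotype, stage or treatment, so comparisons below are between classes of sites. A whole larva mixes many tissues, so a peak does not tell in which cells the fusion was bound.

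Sp1 belongs to the Sp/KLF proteins, transcription factors with zinc fingers that bind G-rich sequences such as GC boxes and CACCC boxes. Divergent promoters place the starts of a pair of genes, transcribed away from each other, on one stretch of open chromatin. In compact genomes such as that of Drosophila they are frequent and often serve broadly expressed genes, and short elements such as the DNA replication-related element (DRE) and motif 1 are known at many fly promoters of that kind.

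The stretches between the starts of 6 head-to-head members are shown because they carry the position that the results below turn on: the summit inside a short interval shared by both genes. Sequence is the plus strand of Release 6 of the reference genome (dm6 coordinates), read from the base after the start of the minus-strand gene to the base before the start of the plus-strand gene, so the plus-strand gene, named first, begins just after the last base. Capitals mark the 21 bases centred on the pooled summit. The first 5 are the strongest members whose summit lies in such a stretch of 100 to 300 bases with no annotated exon, outside one chromosome arm from which no sequence is shown, and the last is the strongest such member with a cytoplasmic ribosomal protein gene.
mRpS10/Art3 (chr3R:15229409-15229664): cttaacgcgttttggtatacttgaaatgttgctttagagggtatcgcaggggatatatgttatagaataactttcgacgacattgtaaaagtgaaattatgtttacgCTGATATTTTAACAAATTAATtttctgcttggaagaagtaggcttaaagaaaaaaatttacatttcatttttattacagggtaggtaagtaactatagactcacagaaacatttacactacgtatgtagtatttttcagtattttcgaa
CG17294/CG13390 (chr2L:8376798-8377034): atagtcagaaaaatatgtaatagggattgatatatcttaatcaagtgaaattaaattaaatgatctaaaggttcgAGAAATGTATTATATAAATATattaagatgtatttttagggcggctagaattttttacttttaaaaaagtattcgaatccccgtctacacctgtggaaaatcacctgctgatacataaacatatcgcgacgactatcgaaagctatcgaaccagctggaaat
CHMP2B/Tcs5 (chr3L:5139396-5139618): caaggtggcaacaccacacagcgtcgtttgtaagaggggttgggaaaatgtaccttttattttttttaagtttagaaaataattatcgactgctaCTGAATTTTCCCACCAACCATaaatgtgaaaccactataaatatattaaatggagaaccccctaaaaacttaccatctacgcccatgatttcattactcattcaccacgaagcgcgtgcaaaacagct
CG3552/CG3437 (chr3L:9457670-9457911): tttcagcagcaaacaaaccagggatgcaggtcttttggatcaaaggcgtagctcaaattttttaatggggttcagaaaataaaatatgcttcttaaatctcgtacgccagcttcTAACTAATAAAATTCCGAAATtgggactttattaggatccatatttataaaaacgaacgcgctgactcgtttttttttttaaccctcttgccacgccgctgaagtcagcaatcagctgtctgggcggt
Arl1/brm (chr3L:15982870-15983134): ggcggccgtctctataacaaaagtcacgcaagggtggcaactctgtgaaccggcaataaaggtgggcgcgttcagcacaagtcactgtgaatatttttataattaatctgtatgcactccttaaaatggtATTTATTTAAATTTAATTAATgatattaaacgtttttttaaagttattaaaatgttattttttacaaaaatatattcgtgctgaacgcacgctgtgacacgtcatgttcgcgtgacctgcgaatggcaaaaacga
CG8132/RpL34b (chr3R:9401227-9401494): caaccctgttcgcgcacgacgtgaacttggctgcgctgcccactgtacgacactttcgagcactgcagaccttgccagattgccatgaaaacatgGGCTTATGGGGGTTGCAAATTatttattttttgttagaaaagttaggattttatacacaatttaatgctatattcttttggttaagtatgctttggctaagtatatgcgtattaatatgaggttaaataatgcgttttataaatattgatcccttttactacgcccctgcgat
In mRpS10/Art3 the stretch held 30.1% G+C and the marked bases are mostly A and T. In Arl1/brm the stretch held 36.6% G+C, and GGGTGG, a core bound by Sp/KLF factors, lies away from the marked bases. Of these 6 stretches, those of CG17294/CG13390 and CG3552/CG3437 held GGGCGG, the GC box core.

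The strongest member lay at CG7632/CG11309, a pair without given names, with a pooled signal of 9111. Signal is the caller's value for each peak as deposited by the authors, without a stated scale between lists, so a replicate's value is read against its own list. Replicates 1, 2 and 3 gave 3683, 2796 and 2693 there. The second, at mRpS10, a protein of the mitochondrial small ribosomal subunit, and Art3, an arginine methyltransferase, had 7723 in the pool and 2975, 2135 and 2673 in the replicates. At the first pair the starts are 39 bp apart and the summit lay 90 bp inside CG11309, while at mRpS10/Art3 the starts are 257 bp apart with the summit 118 bp from the start of Art3 and 139 bp from that of mRpS10.

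The 20 strongest members had pooled signals of 3852 to 9111, and the weakest of them was 96th among all optimal peaks. Their genes serve varied cell functions. Arl1, a GTPase of the Golgi, shares its promoter with brm, the ATPase of the Brahma chromatin remodelling complex, where the replicates gave 1863, 1120 and 1402. CHMP2B, a subunit of the ESCRT-III membrane scission complex, lies opposite Tcs5, with 2324, 1483 and 2284. Ssl1, a subunit of the general transcription factor TFIIH, lies opposite Chro, a chromodomain protein of interbands and the spindle, with 1968, 1683 and 2302. All 3 pairs were lowest in replicate 2.

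Further pairs among the 20 were CG18428/eIF4EHP, Mtl/CG5611, Piezo/Acbp1, CG6178/p38a, Dp1/imd and ver/Gcn5. eIF4EHP is a cap-binding repressor of translation, and the peak had 2445, 2008 and 2030. Piezo encodes a mechanically gated channel and Acbp1 an acyl-CoA binding protein, and that peak had 1824, 1705 and 1196. The protein imd is the adaptor of the immune deficiency pathway, and the Dp1/imd peak had 1588, 1524 and 1114. At ver, a telomere capping protein, and Gcn5, a histone acetyltransferase, the values were 1458, 1166 and 1241. The lowest value of any of the 20 in any replicate was 992, at CG8320/Pex11ab in replicate 2, where the other values were 1324 and 2229. Of the 20, 13 were highest in replicate 1 and 7 in replicate 3, 16 were lowest in replicate 2 and 4 in replicate 3, and in 14 the summit lay between the starts.

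Members had a higher signal than peaks near 1 gene in each replicate, but the size of the difference varied. The pooled median was 479 at members, 400 at peaks near 1 gene and 411 at peaks away from promoters. Within replicates 1, 2 and 3 the medians were 175, 170 and 198 at members, against 147, 162 and 142 at peaks near 1 gene. These medians cover only peaks matched within 100 bp in the replicate, which were 1031, 971 and 854 of the 1070 members. The ratio was 1.21 ± 0.177 (SD, n = 3), from 1.05 in replicate 2 to 1.40 in replicate 3. On the log2 scale the difference was 0.27 ± 0.21, with p = 0.25 by exact permutation (two-sided sign flips) over the 3 replicates. That is the smallest p the design allows, so no comparison of this kind can reach the threshold of 0.05. With the stronger 50% of the optimal peaks alone it was 0.035, less than its spread of 0.16, and without replicate 3 it was 0.16.

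Every replicate list was cut to its 8001 strongest peaks, the size of the optimal set, to ask how often a member was seen again. Of the 1070 members, 555 (51.9%) had such a peak within 100 bp in all 3 replicates, beside 52% of all optimal peaks, so members were not set apart in this. A further 364 had one in 2 replicates, 139 in 1 and 12 in none. The share found per replicate was 86.4%, 79.4% and 70.7% of members, against 85.6%, 79.7% and 65.8% of peaks near 1 gene. The difference was 1.85 ± 2.75 percentage points (exact permutation p = 0.5, n = 3), less than its spread, and 0.30 without replicate 3. Matched peaks of members were 7.83 ± 10.7 bp wider (exact permutation p = 0.5, n = 3), again within the spread. The differences were 3.5, 20 and 0 bp in the replicates, and 1.75 bp without replicate 2.

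Strong promoter peaks were more often at divergent promoters than weak ones of the same list. Among promoter summits of the 8001 strongest peaks 29.7%, 29.4% and 31.1% were divergent in replicates 1, 2 and 3, against 16.9%, 17.3% and 12.1% among the weaker peaks. The difference was 14.6 ± 3.81 percentage points (exact two-sided permutation p = 0.25, n = 3), and the groups did not overlap. In the pooled list 699 of the 4427 weaker promoter summits were divergent (15.8%). Members and peaks near 1 gene of the optimal set were cut into 5 equal classes of signal, leaving out same-strand promoter peaks. From the weakest to the strongest class, members made up 23.9%, 26.9%, 30.3%, 37.3% and 34.6%. In the replicates the corresponding mean share was 23.8% ± 2.15 in the weakest class and 34.3% ± 3.15 in the strongest (SD, n = 3). The 1000 strongest optimal peaks held 156 members (14.6% of members) and 315 peaks near 1 gene (13.0% of those).

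**Figure D1:**
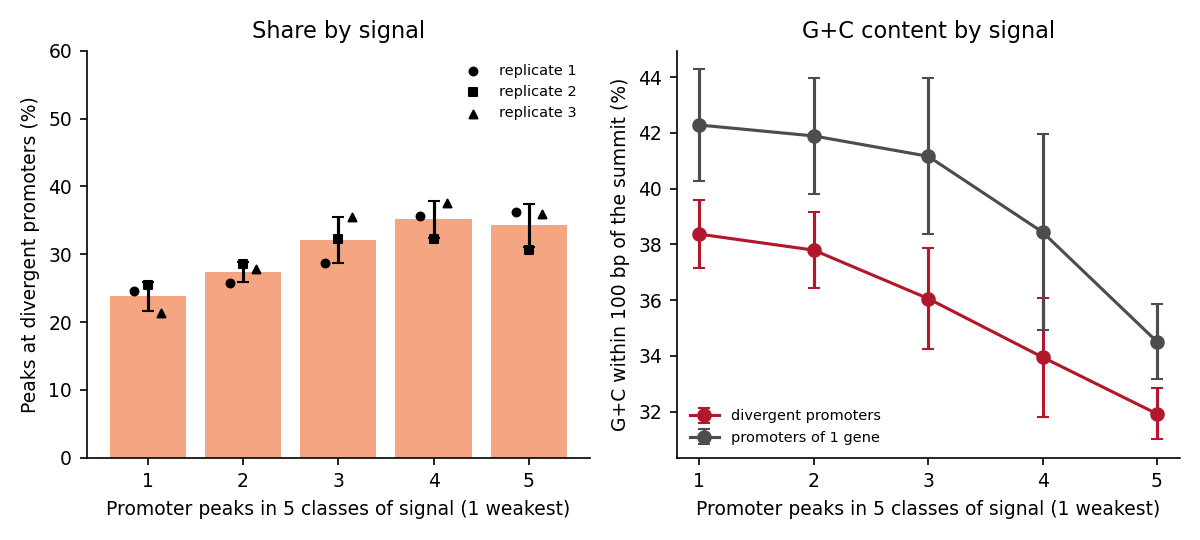
Peaks at divergent promoters and at promoters of 1 gene were ranked together by signal in each replicate. They were cut into 5 equal classes (x axis, 1 the weakest). The left panel plots the percentage at divergent promoters (bars mean, error bars SD, symbols the 3 replicates), which was 23.8% in the weakest and 34.3% in the strongest class. The right panel plots mean G+C content within 100 bp of the summit (mean and SD of 3 replicates) for divergent promoters (red) and promoters of 1 gene (grey); the axis does not start at 0, and the red line lies below the grey one in every class.

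Seen from the genes, a head-to-head neighbour went with a promoter peak. Of the 13945 protein-coding genes, 27.8% had an optimal summit within 500 bp of a TSS, and 14.2% were at a member. Among the 3815 genes with a head-to-head partner, whose TSS lies within 500 bp of one of an opposite-strand gene, 1920 had an optimal summit (50.3%), against 1953 of the 10130 genes without a partner (19.3%). In replicates 1, 2 and 3 the shares were 54.6%, 52.7% and 41.9% with a partner, against 21%, 20.7% and 16.8% without. The difference was 30.2 ± 4.56 percentage points, present in 3 of 3 replicates (exact two-sided permutation p = 0.25), and 18.7 points with a distance of 200 bp in place of 500 bp. Since 1 summit can count for both genes of a pair, the comparison was repeated over promoters and gave 29.4 ± 4.62 points. The recount removes only that double counting. A window round a midpoint takes in the starts of both genes, and neither difference was adjusted for having more starts within reach. Replicate 3 had the lowest shares, and without it the difference was 32.8 points.

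Counted as promoters, 975 of 1995 head-to-head promoters (at 1875 distinct midpoints) had an optimal summit within 500 bp of the midpoint (48.9%). A further 283 (14.2%) had only a weaker pooled summit and 737 (36.9%) had no pooled summit. With each replicate's strongest peaks the share was 53.1%, 51.6% and 40.1%, and 634 promoters had one in all 3. On the arms with members, 45.9% (2L) to 52.0% (3L) of head-to-head promoters had an optimal summit, while none of the 7 on chromosome 4 did, and chromosome 4 held no member. Among promoters without an optimal summit, the strongest pooled peak lay at CG3548/ATPsynF, a subunit gene of ATP synthase, with a signal of 219.6, next to the lowest signal of any member, 220.5. It was followed by 218.3 at spag, a co-chaperone gene, which faces away from both DnaJ-60 and CG42568.

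The share with a peak varied with how far apart the starts were. In the optimal set, with each class running from just over its lower limit up to its upper one, it was 44.5% of promoters with starts up to 100 bp apart, 37.8% at 100 to 200 bp, 54.4% at 200 to 300 bp, 56.5% at 300 to 400 bp and 47.9% at 400 to 500 bp. In replicates 1, 2 and 3 it was 41.5%, 43.7% and 30.5% at 100 to 200 bp and 59.96%, 57.9% and 46.3% at 200 to 300 bp. Every replicate thus had a higher share at 200 to 300 bp than at 100 to 200 bp, while replicate 3 had its lowest share, 27.5%, at up to 100 bp. These classes were compared as a description.

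**Figure D2:**
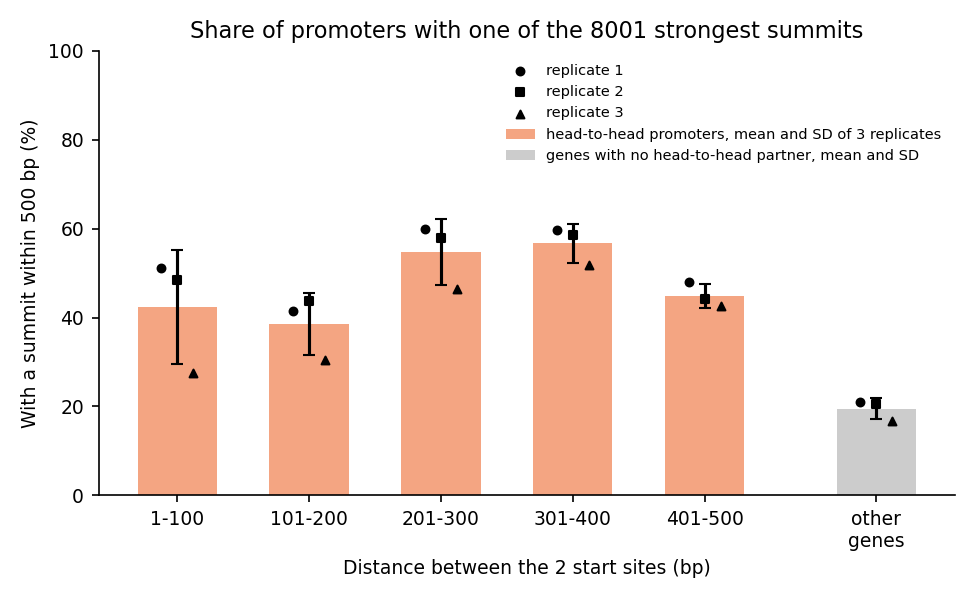
Percentage of head-to-head promoters with one of the 8001 strongest summits of a replicate within 500 bp of the midpoint, by distance between the starts (bars mean of 3 replicates, error bars SD, symbols replicates). The grey bar gives the percentage of genes without a head-to-head partner that had such a summit within 500 bp of a TSS. In all 5 distance classes every replicate lies above its own value for those genes. A window round a midpoint takes in the starts of both genes, which was not adjusted for.

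The summit lay between the starts in most members. Among the 1059 members with a head-to-head pair the starts were a median of 284 bp apart (quartiles 180.5 and 382 bp), and the rule allows starts of members to lie more than 500 bp apart, as they did in 96. The summit was between them in 803 (75.8%), and in 74.8%, 69.3% and 80.1% of the corresponding peaks of replicates 1, 2 and 3 (74.7% ± 5.38, SD). The rule itself favours the middle, since a summit must be within reach of both starts, and on average 44.4% of the positions the rule allows lie between the starts. For the 96 members with starts over 500 bp apart it allows no other position, and all 96 count among the 803. Where several starts were within reach, the head-to-head pair nearest to the summit was taken, also for the allowed positions. With 1 TSS per gene the share between the starts was 71.5% in place of 75.8%. Weaker divergent peaks of the pooled list, where 44.3% of allowed positions lie between the starts, had the summit there in 51.5% of 678. The median distance of a member's summit from the midpoint was 63 bp, and the nearer TSS was a median of 86 bp away.

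Position followed the space available. With starts up to 100 bp apart 36.6% of 153 summits were between them, where 6.72% of the allowed positions are. With starts 200 to 300 bp apart it was 84.5% of 304, with 34.5% of allowed positions, and the median distance from the midpoint was 39.5 bp, the shortest of the classes in the optimal set; in replicate 2 it was 61 bp, against 57.5 bp at up to 100 bp. The replicates gave 84.0%, 77.6% and 86.8% there, and 35.6%, 29.5% and 19.8% at up to 100 bp. The 200 to 300 bp class also had the highest median signal, 567 in the pool and 211, 186 and 230 in the replicates, against 391 and 159, 166 and 164 at up to 100 bp. Of the 256 summits outside the starts, 138 lay on the side of the plus-strand gene and 118 on that of the minus-strand gene, a median of 45.5 bp past the nearer start.

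**Figure D3:**
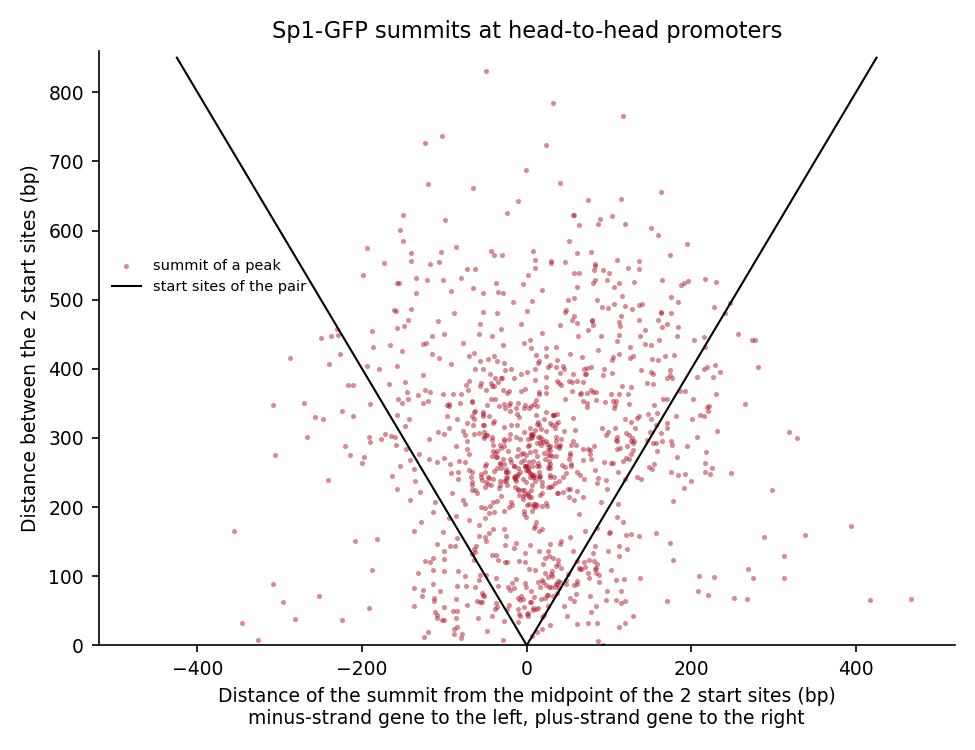
Each point is 1 of 1059 members with a head-to-head pair. The x axis gives the distance of the summit from the midpoint of the starts in bp, the y axis the distance between the starts in bp, and the black lines mark the starts. Points crowd round the midpoint where the starts are 200 to 300 bp apart (84.5% between the lines), and spread beyond the lines where they are closer.

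The closest starts were those of Pisd, a phosphatidylserine decarboxylase, and Atg6, an autophagy gene, 1 bp apart, where the summit lay 92 bp inside Pisd. The peak had 136 and 212 in replicates 1 and 2 and none in replicate 3. HP1b, a heterochromatin protein 1 homologue, and CG7246 start 6 bp apart, with 263, 169 and 191. The farthest apart were the tetraspanin genes Tsp42Er and Tsp42Eq at 830 bp, with 457 and 450 in replicates 1 and 2 and no matched peak in replicate 3. CG43069 and Jheh3, a juvenile hormone epoxide hydrolase, followed at 784 bp with 319, 385 and 251.

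A second summit was found at 111 of the 959 pairs, and 848 had 1. The 2 summits were a median of 203 bp apart, with a range of 199 to 2742 bp, so the median lay close to the shortest distance. CG13510/CG43325, with starts 766 bp apart, shows where the rule ends: 1 of its summits, exactly 500 bp from the farther start, was a member with a pooled signal of 299.6, and another, 501 bp away, was not, with 436.6. The other members nearest the limit were kst/Drsl6 at 498 bp with 398 and a second summit of Vti1b/Vha100-2 at 500 bp with 362. The nearest peaks outside it were CG3163/HSPC300 with 336 and CG1636/CG15343 with 268, both at 502 bp. A member near the most genes, 10, lay among the pre-mod(mdg4) records, which the annotation lists as separate genes and which supply trans-spliced 3' parts of mod(mdg4) transcripts. It had 924, 610 and 864, and 1 member near 5 genes, at NC2alpha/PIG-M, had 218, 154 and 396.

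The 11 members with starts that point towards each other were weaker, apart from 1. At Cyt-c-d, the testis-type cytochrome c gene, and CG31808 the pooled signal was 1957, with 655, 637 and 652 in the replicates. The other 10, among them COX7C/oys, Dcp-1/pita and CG4313/Actn, had pooled signals of 228 to 447. These pairs, like the members near the most genes, were picked for description after their values were seen.

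The list of cytoplasmic ribosomal proteins held the highest shares of genes with a promoter peak. Of its 34 genes with a head-to-head partner 32 had an optimal summit, against 42 of the 52 others, so the list was high with and without a partner. In each replicate 91.2% with a partner had a peak, against 80.8%, 82.7% and 84.6% without. RpS27, opposite the nucleoporin gene Nup37, had 899, 849 and 952. RpL34b, opposite CG8132, had 986, 707 and 730, and RpL7, opposite Ripalpha, had 694, 673 and 811. Lists here are groups of genes by symbol, and their counts are read beside the 50.3% and 19.3% of all genes given above.

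Of the mitochondrial ribosomal protein genes 54 of 75 (72%) had a head-to-head partner, against 27.4% of all protein-coding genes. This was not particular to the list, with 71.0% in ribosome biogenesis, 66.7% in splicing and 63.6% in aminoacyl-tRNA synthetases. Only chemoreceptors (8.89%), cuticle proteins (1.47%), cytochrome P450 genes (6.90%) and genes without a given name (21.2%) were below 27.4%. Among mitochondrial ribosomal protein genes 32 of 54 with a partner had an optimal summit, against 2 of 21 without. The replicates gave 57.4%, 51.9% and 46.3% with a partner, against 19.0% in each without. CenG1A/mRpS23, where CenG1A is an Arf GTPase-activating protein, had 2089, 1633 and 2111, and CG9004/mRpL23 had 1585, 1121 and 1763. In the optimal set the 59.3% of genes with a partner compare with 50.3%, and the 9.52% of genes without one with 19.3%, for all protein-coding genes. The replicate means lay closer together. They were 51.9% against 49.7% for all genes with a partner, and 19.0% against 19.5% for all genes without one.

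Among aminoacyl-tRNA synthetases, which charge tRNAs, 13 of 21 genes with a partner and 2 of 12 without had a summit. GluProRS, opposite AP-1sigma, had 367, 263 and 469, IleRS, opposite the WAVE complex gene Hem, had 353, 291 and 554, and SerRS, opposite CG17260, had 461, 373 and 427. All 3 were lowest in replicate 2. Translation factors had 11 of 21 with a partner and 11 of 32 without, and eIF1, a start-site selection factor, shares its promoter with RpL28 and had 470, 482 and 552. The peak at senju/eIF3h had 455 in replicate 3 and no peak within 100 bp in the other replicates.

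Oxidative phosphorylation genes had a summit in 15 of 37 with a partner and 8 of 43 without. ND-ASHI, a subunit of respiratory complex I, lies opposite Fum1, a fumarase, and the peak had 904, 759 and 738. ND-42 lies opposite Cchl, the cytochrome c haem lyase, with 304, 273 and 304. For mitochondrial import and assembly the counts were 3 of 8 and 3 of 19, with 343, 82.8 and 355 at Tom7, an outer membrane translocase subunit, whose value in replicate 2 was far below the other values. For the vacuolar ATPase they were 6 of 13 and 6 of 21, with Vti1b/Vha100-2 at 539, 628 and 721.

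Of the proteasome genes 12 of 24 with a partner and 4 of 24 without had a summit. Rpn5, a lid subunit, opposite the histone acetyltransferase Hat1, had 210, 307 and 357. Rpt5, a base ATPase, opposite RanBP3, had 220 and 241 in replicates 1 and 2 and no peak in replicate 3. The ubiquitin conjugation list had 10 of 23 with a partner and 10 of 25 without. In replicates 1, 2 and 3 the shares were 39.1%, 52.2% and 43.5% with a partner, against 32%, 28% and 32% without. Uba2, a subunit of the SUMO-activating enzyme, had 650, 484 and 538 with Cds, and Cdc16, an anaphase-promoting complex subunit, had 383, 346 and 467 with orb.

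RNA polymerase subunits, general transcription factors, Mediator and Integrator had a summit in 30 of 58 genes with a partner and 7 of 38 without. Polr3E, of RNA polymerase III, had 756, 814 and 687 with CG10584, and IntS11, the Integrator endonuclease, had 780, 523 and 841 with Wdr24. Taf10 and Taf10b, paralogous TFIID subunits, share 1 promoter, and the peak there was weak, with 143 and 147 in replicates 1 and 2 and none in replicate 3. Splicing genes had 15 of 26 and 2 of 13, with U2af50, the large subunit of U2AF, at 553, 335 and 604 opposite PIG-Q.

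For DNA replication and repair the counts were 13 of 32 with a partner and 4 of 29 without. PolD2, a subunit of DNA polymerase delta, had the strongest peak, with 1342, 1036 and 1280 opposite CG13933. Mcm2, of the replicative helicase, and RPA1, of the single-strand binding complex, are partners, with starts 519 bp apart and 336, 297 and 411. Ribosome biogenesis genes had 10 of 22 and 3 of 9; the strongest peak picked by its symbol pattern was that of Rrp1, which encodes a DNA repair endonuclease, at 478, 370 and 614.

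Among the lists of named genes, membrane traffic had the largest count of genes with both a partner and a summit, 42 of 63, with 21 of 61 among those without a partner. It also had the most genes with a partner. Its share of 66.7% was below the 94.1% of cytoplasmic ribosomal proteins and the 75% of the Polycomb and trithorax groups. In replicates 1, 2 and 3 the shares were 71.4%, 69.8% and 58.7% with a partner, against 36.1%, 32.8% and 24.6% without. alphaCOP, a coat protein of Golgi vesicles, had 988, 727 and 1054 with CG13919. Vps33B, of the endosomal fusion machinery, had 610, 450 and 785 with Fur1, a proprotein convertase gene. Vps2, of ESCRT-III, and Exo84, of the exocyst, are partners with 102 in replicate 1 and no peak in the others. For the Polycomb and trithorax groups 12 of 16 genes with a partner and 9 of 17 without had a summit, and E(z), the histone H3 methyltransferase of the group, starts 16 bp from Cnep1r2, with 901, 707 and 924.

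Gene families with tissue-restricted expression gave few members. Of 180 chemoreceptor genes 16 had a partner and 2 of these had a summit, against 0 of 164 without. These were Gr63a, a subunit of the carbon dioxide receptor, whose peak with Lamtor4 had 122, 159 and 23.7, and Ir60e, with 113 in replicate 1 alone. Both summits lay nearer the partner's start. That of Lamtor4/Gr63a was 2 bp from the start of Lamtor4 and 295 bp from that of Gr63a. That of CG13585/Ir60e was 9 bp from the start of CG13585 and 331 bp from that of Ir60e. No cuticle protein gene was at a member: 2 of 136 genes selected by symbol, which include some Acp genes of the male accessory gland, had a partner and neither had a summit, against 1 of 134 without. Of 87 cytochrome P450 genes none of the 6 with a partner but 11 of the 81 others had a summit, although Cyp9f2 was within reach of 1 member by the wider rule, since its start and that of CG5167 are 504 bp apart. Genes without a given name made up 590 of the 1974 genes at members. These were 9.68% of the 6097 genes without a given name, below the 14.2% of all protein-coding genes at a member. Of the genes without a given name, 568 of 1290 with a partner had a summit, against 562 of 4807 without. With unnamed, chemoreceptor, cuticle and P450 genes left out, the difference between genes with and without a partner was 25.4 ± 3.48 points.

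**Figure D4:**
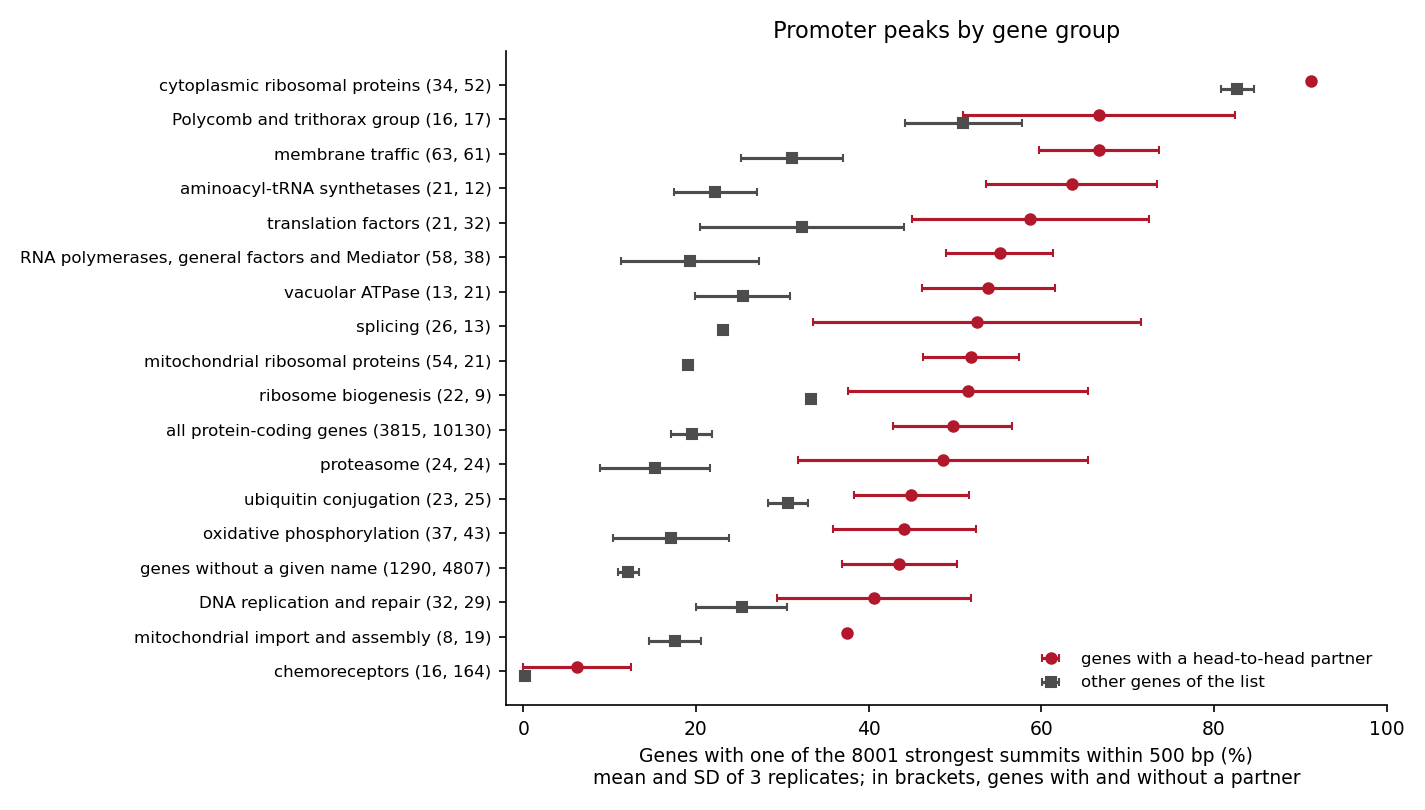
Percentage of the genes of each list with one of a replicate's 8001 strongest summits within 500 bp of a TSS (x axis), for genes with a head-to-head partner (red, above) and the other genes of the list (grey, below), as mean and SD of 3 replicates. Numbers in brackets are genes with and without a partner; cytoplasmic ribosomal proteins lie highest in both groups, and the means of genes with a partner lie to the right in the lists drawn. Cuticle proteins and cytochrome P450 genes, with 2 and 6 genes with a partner, are not drawn, and for P450 the order was the reverse (5.56% with and 11.1% without a partner).

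Sequence round the summits differed between members and peaks near 1 gene. G+C content within 100 bp of the summit was 35.5%, 36.8% and 33.6% at divergent peaks of replicates 1, 2 and 3, against 40.7%, 41.4% and 37.2% at peaks near 1 gene. The difference was -4.50 ± 0.831 percentage points, and the replicate values of the classes did not overlap (exact two-sided permutation p = 0.25, n = 3). Stronger members were poorer in G+C: it averaged 39.3% in the weakest and 31.6% in the strongest of the 5 signal classes, against 43.5% and 33.99% at peaks near 1 gene. Replicate 3 had the lowest G+C content in both classes, and without it the difference was -4.95 points. With classes drawn within 1000 bp it was -2.37 points. Optimal peaks away from promoters had 35.4% G+C, close to the 35.3% of members and below the 40.1% of peaks near 1 gene, so low G+C content was not particular to members.

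The words tied to Sp and KLF factors were at a lower share of divergent summits in every replicate. GGGCGG, the GC box core, searched on both strands like all words here, was within 100 bp of 2.28%, 3.16% and 2.42% of divergent summits in replicates 1, 2 and 3, against 5.80%, 5.26% and 3.56% of summits near 1 gene. GGGTGG, the core of CACCC boxes read on the other strand, was at 5.34%, 4.35% and 4.95%, against 7.31%, 6.75% and 6.002%. In the optimal set 92 members (8.60%) had at least 1 of the words GGGCGG and GGGTGG and the longer GGGCGTG, against 12.6% of peaks near 1 gene. The difference for GGGTGG, -1.81 ± 0.685 points, did not keep 1 direction in all replicates with classes drawn within 1000 bp (-0.196 ± 0.917) or in 50 bp windows (-0.703 ± 0.804). Windows of the same length round all protein-coding TSSs held GGGCGG in 4.69% and GGGTGG in 5.61%. For optimal peaks away from promoters the shares were 4.01% and 5.34%.

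TATCGATA, the DRE, is the palindrome bound by the factor Dref, and 113 members had it within 100 bp. It was at 10.1%, 10.8% and 10.8% of divergent summits in the replicates, against 4.28%, 3.66% and 3.41% of summits near 1 gene, a difference of 6.77 ± 0.859 points. CGATA, which TATCGATA contains and which is also the core bound by the insulator protein BEAF-32, was at 45.4% ± 0.990 against 30.8% ± 2.53 (SD, n = 3). GGTCACAC, the core of motif 1, which M1BP binds, was at 7.06% ± 0.277 against 3.98% ± 0.530, a difference of 3.08 points that was -0.014 ± 0.419 when classes were drawn within 200 bp of a TSS. TATCGATA or GGTCACAC was at 186 members (17.4%), and both were at 4. This combined count describes members only and is not set against another class. Taken singly, TATCGATA was at 10.56% and GGTCACAC at 7.20% of members. All head-to-head promoters, with or without a peak, held them in 10.98% and 7.07% of windows centred on the midpoint. Members were thus close to head-to-head promoters in general for both words.

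TATAAA was at 40.98% ± 5.12 of divergent summits and 28.3% ± 4.04 of summits near 1 gene. The word was matched anywhere within 100 bp on either strand, so a match need not be a TATA box. Word shares were not adjusted for the difference in G+C content between the classes. In the optimal set TATAAA was at 41.7% of members, 28.5% of peaks near 1 gene and 35.5% of peaks away from promoters. GAGAG, the core bound by the factor Trl, showed the reverse, with 15.2%, 17.5% and 13.3% of divergent summits in the replicates against 31.2%, 32.8% and 26.6%. TCAGT, the initiator core, was at 28.4% ± 1.36 against 34.8% ± 1.29. CAGCTG, an E-box, was at 13.0% ± 2.67 against 10.4% ± 1.80. For the E-box CACGTG, the AP-1 word TGACTCA and the word GATAAG of GATA factors the differences were under their spread, from 0.0016 to 0.080 points, and AGGTGGCG, a CTCF core, was at 0.492% against 0.354%. Of the 14 words, 11 differed in 1 direction in all 3 replicates, each with exact two-sided permutation p = 0.25 (adjusted over the words 0.318), which does not pass the threshold.

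**Figure D5:**
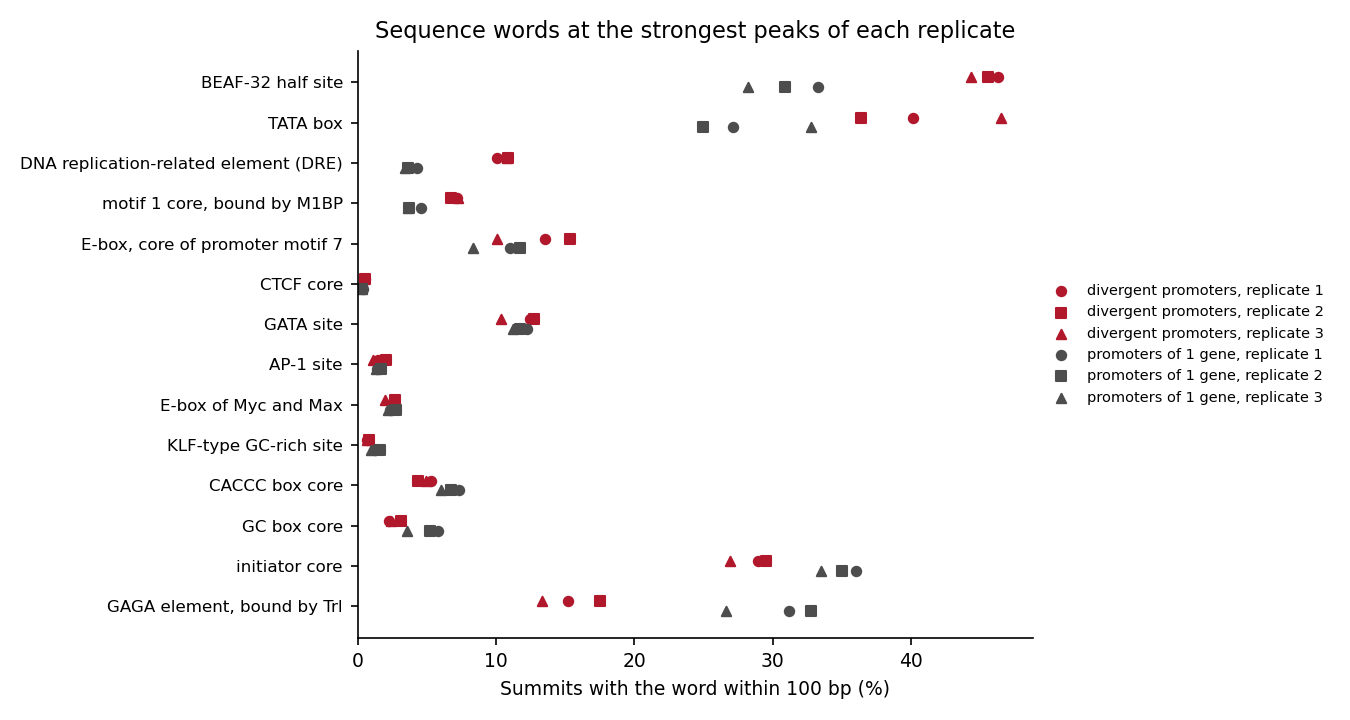
Percentage of summits with each of 14 words within 100 bp (x axis) among the 8001 strongest peaks of each replicate, for divergent promoters (red) and promoters of 1 gene (grey), with 1 symbol per replicate. The BEAF-32 core, the word TATAAA (labelled TATA box) and the DRE lie to the right at divergent promoters, and the GAGA element and the initiator core to the left. Shares are not adjusted for G+C content.

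Head-to-head promoters without an optimal summit held several of these words at similar shares, compared here without a test. In windows centred on the midpoint, TATCGATA was in 10.3% of the 975 promoters with an optimal summit and in 11.7% of the 1020 without, CGATA in 45.7% and 47.7%, GAGAG in 14.8% and 14.6%, and TATAAA in 40.9% and 38.1%. G+C content was 33.2% with and 35.3% without a summit. All protein-coding TSSs gave 6.45% for TATCGATA, 24.99% for GAGAG, 26.9% for TATAAA and 42.3% G+C. TCAGT was in 28.1% with and 36.5% without a summit, and GGTCACAC in 5.54% and 8.53%. The GC box core GGGCGG was in 1.74% with and 2.25% without a summit, and GGGTGG in 4.10% and 5.39%. Neither word had a higher share at the promoters with a summit. These are descriptions of the sites, and a match of letters is not evidence of binding by a factor.

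Members with TATCGATA had a lower pooled signal, with a median of 407 at 113 members, against 484 at the 957 without it. In replicates 1, 2 and 3 the medians were 172, 153 and 168 with the word, against 175, 171 and 200 without. The gap was small in replicate 1. Peaks near 1 gene showed the same order, with a pooled median of 361 at the 97 with the word, against 403 at the 2332 without it. Leaving peaks with the word out of both classes gave a log2 ratio of members to peaks near 1 gene of 0.27 ± 0.21, the same as with them.

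A set of 4 stretches between starts shows the DRE with and without a peak, chosen after their values were seen, with TATCGATA in capitals and the strand and ends as for the stretches above. Shc/Atat and Lamtor3/fws are the 2 strongest members that hold the word in a stretch of 100 to 300 bases free of exons, with pooled signals of 3256 and 2863. Alg12/Rpt3R and Ccdc58/TORIP hold it and had no pooled peak within 500 bp of the midpoint.
Shc/Atat (chr3L:9426759-9427009): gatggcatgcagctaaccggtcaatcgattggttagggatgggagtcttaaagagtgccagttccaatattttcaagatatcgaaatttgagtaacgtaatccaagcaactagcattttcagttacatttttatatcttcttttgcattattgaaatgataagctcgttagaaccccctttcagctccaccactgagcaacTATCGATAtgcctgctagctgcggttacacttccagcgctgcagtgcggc
Lamtor3/fws (chr2L:17481030-17481230): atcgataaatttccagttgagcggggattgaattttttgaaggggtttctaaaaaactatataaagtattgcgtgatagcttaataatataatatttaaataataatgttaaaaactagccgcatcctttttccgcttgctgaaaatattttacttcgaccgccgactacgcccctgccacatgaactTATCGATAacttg
Alg12/Rpt3R (chr3R:9756215-9756490): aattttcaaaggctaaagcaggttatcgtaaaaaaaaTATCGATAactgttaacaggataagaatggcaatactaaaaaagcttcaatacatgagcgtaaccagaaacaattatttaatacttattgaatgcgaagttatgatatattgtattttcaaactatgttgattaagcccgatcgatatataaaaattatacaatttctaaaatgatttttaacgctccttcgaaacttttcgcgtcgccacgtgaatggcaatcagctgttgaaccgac
Ccdc58/TORIP (chr3L:19805081-19805180): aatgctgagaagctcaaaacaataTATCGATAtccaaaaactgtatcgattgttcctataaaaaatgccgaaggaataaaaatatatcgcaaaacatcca
In all of them the word occurs once. The stretches with a peak held 43.0% G+C (Shc/Atat) and 34.3% (Lamtor3/fws), against 31.5% (Alg12/Rpt3R) and 31.0% (Ccdc58/TORIP) in those without one. Over all head-to-head promoters the order was the reverse. Windows centred on the midpoint had 33.2% G+C with an optimal summit and 35.3% without. The picked stretches are examples only, and a part of G+C content or the DRE in binding was not tested.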

How the data were processed

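Sp1-GFP ChIP-seq was analysed from narrowPeak lists, 1 per replicate, 1 for the pooled replicates, and the optimal set. Deposited descriptions name, as the source of a replicate list, its alignment with 1 control alignment, and irreproducible discovery rate filtering for the optimal set. The labels give dm6. Neither aligner nor peak caller is given in the sources used here. Peaks were ranked within a list by the deposited signal. The deposited −log10 q was left unused, and positions came from the other column, the deposited summit offset. Replicate and pooled lists end at 30000 lines. The optimal set was the 8001 strongest pooled peaks, so replicates are not independent of it. Without read counts, depth is unknown and no interval that needs it is given.

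Gene models were Ensembl release 115 (BDGP6.54), with 13945 protein-coding genes and 19607 TSSs on 2L, 2R, 3L, 3R, 4 and X; sequence was Release 6. A replicate's peaks were matched to a pooled summit within 100 bp, taking the highest. Tests were exact two-sided sign-flip permutations over 3 replicates, with Benjamini-Hochberg adjustment over 14 words. Replicates are separate biosamples of 1 line, and p-values measure only their spread. The naming rule covers the 20 strongest members, the 3 strongest per list (not all printed), pairs with both genes in 1 list, the 3 shortest and 3 longest distances (1 pair is not reported here), peaks nearest the 500 bp limit and the strongest promoters with only a weaker peak. Gene lists came from symbol patterns. Members, lists, words and tests were chosen with earlier results of these data known. Python 3.11.15 was used (scipy 1.17.1, numpy 2.4.6, pandas 2.3.3, matplotlib 3.10.9), and the statistics were tested on simulated data.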

Additional observations from a re-analysis of the deposited data

How the results depend on the processing

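The higher signal, bound share, share among strong peaks and lower G+C content kept their direction under all alternatives run, which changed the TSS distance, the TSSs used, the peak set, repeated intervals, the pair definition, the matching distance, the source of the classes or the word window, or left out a replicate. Ranges were 0.035 to 0.49 for the log2 signal ratio, 18.7 (within 200 bp) to 32.8 points for the bound share, 12.3 to 15.9 points for the strong against weak share and -5.68 to -2.37 points for G+C. Members numbered 511 with TSSs within 200 bp and 617 among the stronger 50% of peaks. The share of summits between the starts was 69.0% at 1000 bp. The width difference was -21 bp with the stronger 50% of peaks. Among words, 17 differences changed sign, all of words that differed little except GGTCACAC, at -0.014 points within 200 bp. TGACTCA gave -0.033 at 200 bp, -0.10 at 1000 bp, and -0.12 and -0.14 in windows of 50 and 250 bp. GATAAG gave -0.12 at 200 bp, -0.38 at 1000 bp, -0.65 with the stronger 50% and -0.19 in the 250 bp window. CACGTG gave -0.30 with 1 TSS per gene, -0.30 with the stronger 50%, -0.043 with repeated intervals reduced and -0.11 in the 50 bp window, and AGGTGGCG gave -0.15 in the 250 bp window. The cause was not tested. Leaving out 1 replicate gave -0.14 to 0.11 for CACGTG, -0.087 to 0.20 for TGACTCA and -0.38 to 0.58 for GATAAG. List counts moved by over 1.5 times in 27 of 114 cases, 13 of them at 200 bp, 10 with the stronger 50% and 4 at 1000 bp. Alternatives with promoters counted, with unnamed and tissue-restricted families left out, without TATCGATA peaks and with windows centred on the TSS were chosen after seeing the data. Samples could not be paired across groups, because there was 1 group. The tests paired classes of sites within each replicate. With 3 replicates the smallest possible p is 0.25, and unknown depth leaves the weakest peaks without a measure of their error.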
